A study of Mus musculus with 14 samples.

Results

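Keratins and claudins, the filament and tight junction proteins of epithelia, were followed through 12 ChIP-seq peak lists from mouse neural stem cells. The set held every autosomal protein-coding gene of mouse build mm10 (RefSeq) whose symbol is Krt or Cldn followed by a digit, which gave 76 of 20665 genes, with 53 keratins and 23 claudins. Of the keratins, 27 formed a cluster on chromosome 11 and 26 a cluster on chromosome 15, and 0 lay outside these clusters. The claudins lay at 19 loci, where genes no more than 50 kb apart were taken as 1 locus.

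Keratins build the intermediate filaments of epithelial cells and hair, and each filament needs an acidic type I and a basic type II partner. The type I genes are clustered on mouse chromosome 11 and the type II genes on chromosome 15, where Krt18, a type I gene, lies beside its partner Krt8. Claudins span the membrane at tight junctions and set which ions and solutes pass between cells. In cells that are not epithelial, such genes are often covered by H3K27me3, the repressive histone mark written by the Polycomb complex PRC2.

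The cells are called PDGF neural stem cells in the labels and mouse DIPG cells in the series' design text, after a glioma of the brainstem that arises in childhood. They carried K27M histone H3.3, in which the lysine that bears the mark is replaced by methionine, or wild-type H3.3 (H3WT). H3K27me3 was mapped in 4 groups of 2 libraries each: K27M cells treated with EPZ6438 (EPZ), H3WT cells treated with EPZ, K27M cells in DMSO and H3WT cells in DMSO. EPZ inhibits Ezh2, the enzyme of PRC2, and was given at 3 µM for 12 days, and DMSO is its solvent. Suz12, a PRC2 subunit, and Ring1b, which places ubiquitin on histone H2A as part of PRC1, were profiled in DMSO with 1 library of K27M cells and 1 of H3WT cells each. How many clones or animals lie behind each genotype was not given in the sources used here. Nothing in the labels says that replicates 1 and 2 were separate cultures. Any p-value below therefore measures the spread between libraries of both genotypes, and the part between replicates may be technical.

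The lists differed widely in size. On the autosomes the EPZ lists held 201 and 338 peaks in K27M cells and 278 and 271 in H3WT cells. In DMSO the H3K27me3 lists held 2153 and 9368 autosomal peaks in K27M cells against 11053 and 43446 in H3WT cells, in replicates 1 and 2. The Suz12 lists held 1243 peaks in K27M cells and 631 in H3WT cells, and the Ring1b lists 1777 in K27M cells and 1727 in H3WT cells. Read depth is unknown, and a list records where a peak was called, not how much mark was present. Of 18 neural stem and glial progenitor markers, 1, Prom1, had a peak in both H3WT DMSO lists, and Sox2, Olig2, Vim and Fabp7 had none in any list. A peak list cannot show whether these genes were expressed.

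A gene was counted as marked in a list with a peak within 1 kb of its start or end. Under EPZ no keratin and no claudin was marked in any of the 4 lists. Across all genes 0.532% and 0.881% were marked in the K27M EPZ lists and 0.910% and 0.798% in the H3WT EPZ lists. In DMSO, K27M replicate 1 marked 3 members, all claudins, against 4.62% of all genes, and K27M replicate 2 marked 6 members, 3 claudins and 3 chromosome 15 keratins, against 10.0% of all genes. H3WT replicate 1 marked 12 members, with 3 chromosome 11 keratins, 6 chromosome 15 keratins and 3 claudins, against 10.7% of all genes. H3WT replicate 2, the list with the most peaks, marked 29 members, with 11 chromosome 11 keratins, 10 chromosome 15 keratins and 8 claudins, against 20.8% of all genes. Members of both families were thus marked in the H3WT DMSO lists, and at least 3 of those marked in each K27M DMSO list were claudins. Where a peak lay at members, its median width was 3.60 and 5.12 kb in K27M cells and 3.99 and 2.42 kb in H3WT cells, against 2.98 and 2.15 kb in K27M cells and 1.90 and 1.93 kb in H3WT cells over all autosomal peaks. These medians rest on 3 and 6 peaks in K27M cells and 13 and 37 in H3WT cells. A wide peak reaches a gene end more readily than a narrow one, which favours larger widths at any gene set.

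**Figure D1:**
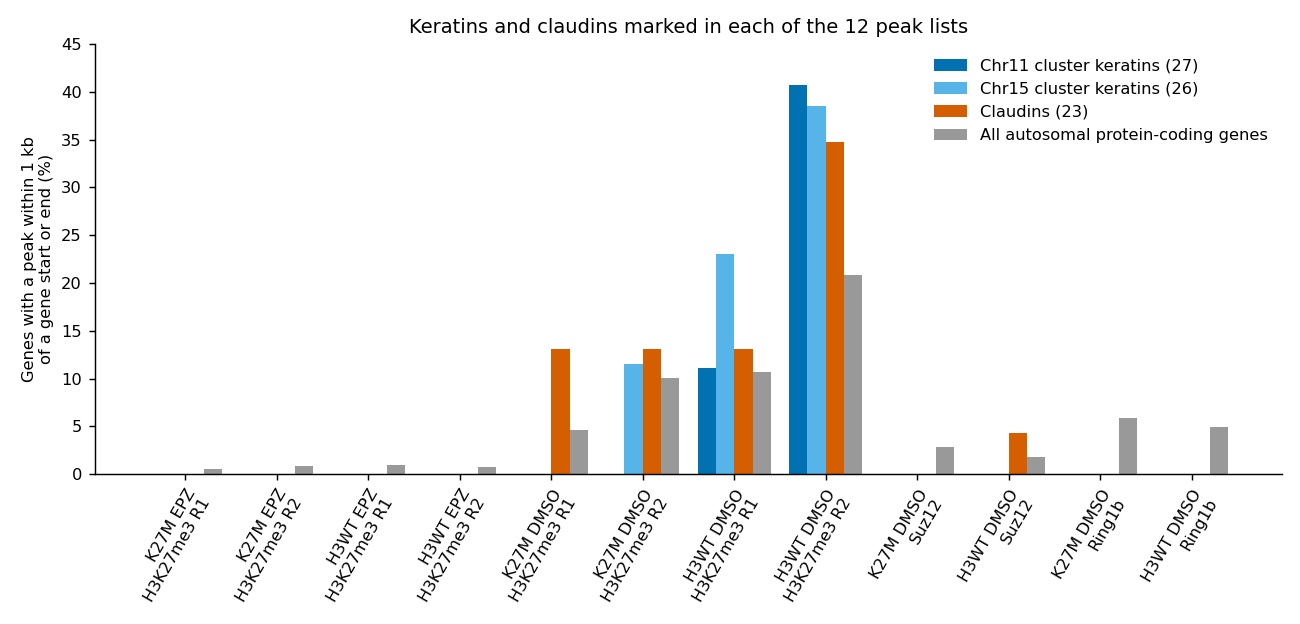
Share of genes with a peak within 1 kb of a gene start or end, in percent, for the keratins of each cluster, the claudins and all autosomal protein-coding genes, in each of the 12 peak lists. The keratin bars are at 0 in every list except K27M DMSO H3K27me3 replicate 2 (chromosome 15 only) and the H3WT DMSO H3K27me3 lists, and only Cldn7 gives a bar under Suz12.

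Suz12 and Ring1b peaks were few at the members, and few over all genes. No member was marked by Suz12 in K27M cells, against 2.81% of all genes, and 1 member, Cldn7, was marked by Suz12 in H3WT cells, against 1.79%. No member was marked by Ring1b in K27M cells (5.82% of all genes) or in H3WT cells (4.96%). With 1 library of each kind these counts have no replicate check. In all, 47 of the 76 members were marked in no list at all, 32 keratins and 15 claudins, where 75.6% of all genes were in no list.

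The comparison of K27M with H3WT cells in DMSO asks which keratins and claudins kept the mark in cells with the mutant histone. A peak in both H3WT DMSO lists was found at 12 members, 9 keratins and 3 claudins, against 10.6% of all genes. Both K27M DMSO lists had a peak at 3 members, Cldn7, Cldn3 and Cldn23, against 4.62% of all genes. Of the 12 members marked in H3WT cells, 3 were also marked in both K27M lists (retained), where the share over all H3WT-marked genes was 42.8%. Another 3 had a peak in 1 K27M list (partial), against 38.4%, and 6 had one in neither (lost), against 18.8%. By family, all 3 claudins were retained, and of the 9 keratins 0 were retained, 3 were partial and 6 were lost. No member was gained, that is, marked in both K27M lists and in neither H3WT list, against 0.0145% of all genes. Keratins that share a cluster can share a peak, so the 9 keratins are not 9 independent observations: counted as loci, the H3WT-marked members came to 5. The exact permutation test of 2 libraries with 2 cannot give a p below 0.333, and the genotypes were compared by values only.

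The lists can also be read against each other one by one. Of the 29 members marked in H3WT replicate 2, 6 were marked in K27M replicate 2, 3 of 21 keratins and 3 of 8 claudins, where the share over all genes was 47.5%. Of the 12 marked in H3WT replicate 1, 3 were marked in K27M replicate 1, 0 of 9 keratins and 3 of 3 claudins, against 42.5% over all genes. Between the H3WT replicates themselves, 12 of the 29 members of replicate 2 recurred in replicate 1, 9 of 21 keratins and 3 of 8 claudins, against 50.8% over all genes. The pair of lists closest in size was K27M replicate 2, covering 41.6 Mb of the autosomes, and H3WT replicate 1, covering 39.2 Mb. They marked 2068 and 2204 genes, and of the 12 members in H3WT replicate 1 the list of K27M replicate 2 held 6, 3 of 9 keratins and 3 of 3 claudins, where over all genes the share was 80.6%. In lists of about the same length, then, 3 keratins were marked in K27M cells and 9 in H3WT cells, and 3 claudins in each.

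**Figure D2:**
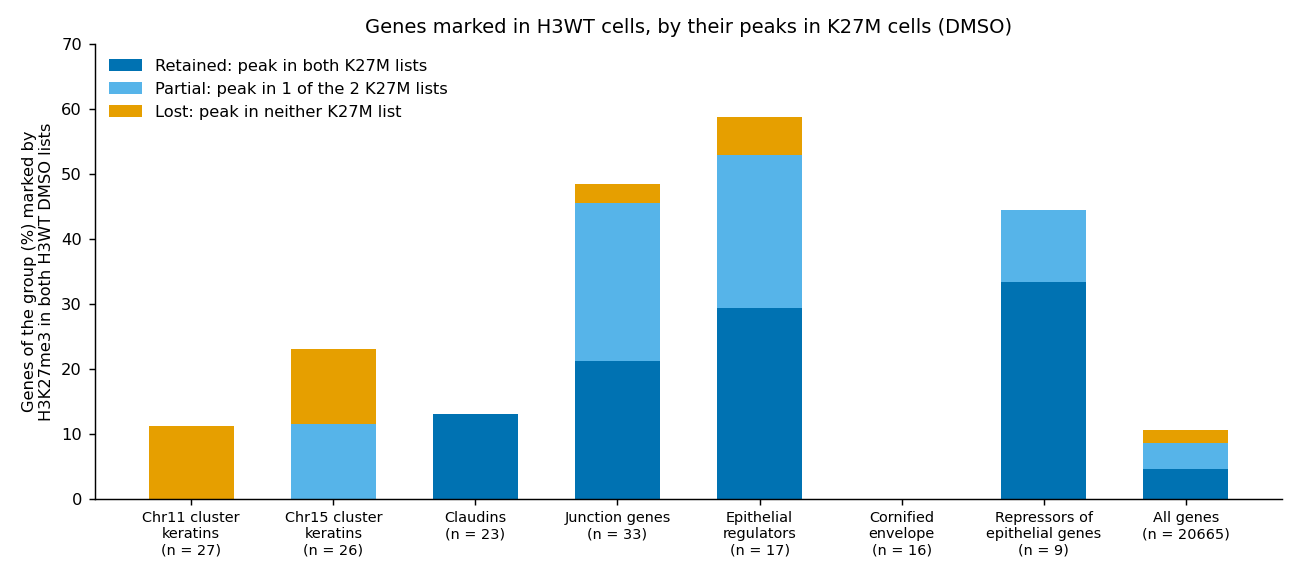
Share of each gene group, in percent, with an H3K27me3 peak in both H3WT DMSO lists, split by colour into genes with a peak in both, in 1 or in neither of the K27M DMSO lists. The claudin bar is retained throughout, the chromosome 11 keratin bar is lost throughout, and the junction and regulator bars are mostly retained or partial.

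The claudins with the mark were Cldn7, Cldn3 and Cldn23. Cldn7, on chromosome 11, is found along the lateral membrane of epithelial cells, and Cldn3, on chromosome 5, seals tight junctions. RefSeq promoters of build GRCm38.p6, 300 bases around a listed start, are printed with each CG dinucleotide in capitals: they are of the 2 retained claudins with an entry, of Krt8 and Krt7, simple epithelial keratins that were partial and lost, and of Krt14, a basal epidermal keratin with no peak. Their positions are chr11:69965171-69965470 (Cldn7, second listed start, plus strand), chr5:134985964-134986263 (Cldn3, plus strand), chr15:102004293-102004592 (Krt8, minus strand), chr15:101412153-101412452 (Krt7, plus strand) and chr11:100205981-100206280 (Krt14, minus strand). The Krt14 stretch lies inside the gene record, which runs from 100203162 to 100207510, and not at its 5′ end.
Cldn7: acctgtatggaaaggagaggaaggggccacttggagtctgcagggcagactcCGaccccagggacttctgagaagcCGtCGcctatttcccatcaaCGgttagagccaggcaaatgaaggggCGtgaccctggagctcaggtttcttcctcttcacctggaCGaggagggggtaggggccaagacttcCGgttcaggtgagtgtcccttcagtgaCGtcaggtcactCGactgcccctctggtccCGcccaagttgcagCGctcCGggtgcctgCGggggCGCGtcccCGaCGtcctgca
Cldn3: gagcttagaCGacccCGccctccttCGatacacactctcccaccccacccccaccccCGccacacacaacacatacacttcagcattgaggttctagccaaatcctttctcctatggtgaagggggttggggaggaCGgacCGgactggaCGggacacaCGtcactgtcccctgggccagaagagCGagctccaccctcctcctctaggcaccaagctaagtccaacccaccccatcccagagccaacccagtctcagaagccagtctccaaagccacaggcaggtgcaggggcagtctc
Krt8: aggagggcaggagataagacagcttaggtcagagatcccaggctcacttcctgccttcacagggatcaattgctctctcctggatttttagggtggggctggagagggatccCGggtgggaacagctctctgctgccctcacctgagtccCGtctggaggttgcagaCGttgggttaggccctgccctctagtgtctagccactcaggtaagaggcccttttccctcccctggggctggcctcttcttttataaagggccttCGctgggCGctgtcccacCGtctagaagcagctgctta
Krt7: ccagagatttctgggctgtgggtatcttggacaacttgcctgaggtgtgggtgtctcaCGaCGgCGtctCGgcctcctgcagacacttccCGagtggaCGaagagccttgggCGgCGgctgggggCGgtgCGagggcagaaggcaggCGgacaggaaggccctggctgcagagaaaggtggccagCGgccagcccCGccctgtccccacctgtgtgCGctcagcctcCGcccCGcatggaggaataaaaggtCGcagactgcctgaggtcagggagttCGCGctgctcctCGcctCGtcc
Krt14: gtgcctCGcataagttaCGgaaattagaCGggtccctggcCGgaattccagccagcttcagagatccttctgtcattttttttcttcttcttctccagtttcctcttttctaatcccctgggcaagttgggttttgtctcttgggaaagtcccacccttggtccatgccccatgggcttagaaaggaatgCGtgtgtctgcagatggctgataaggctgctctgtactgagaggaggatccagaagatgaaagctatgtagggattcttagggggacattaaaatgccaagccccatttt

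All 300 bases of the Cldn7 and Cldn3 promoters lay under a peak in both K27M and both H3WT DMSO lists, and those of Cldn7 also under the Suz12 peak of H3WT cells. The Krt8 promoter lay under a peak in K27M replicate 2 and in both H3WT lists, the Krt7 promoter in both H3WT lists only, and the printed Krt14 stretch in none. CG dinucleotides numbered 17 at Cldn7, 9 at Cldn3, 6 at Krt8, 21 at Krt7 and 5 at Krt14. Whether their number goes with the mark was not tested. Among claudins a promoter entry was found for 19 of 23, with a median of 9 CG dinucleotides in the richest listed start, against 15 over 16457 genes with an entry. The letters CACCTG on either strand, an E-box to which Zeb and Snail repressors are known to bind, occurred in 5 of the 19 claudins (26.3%) and in 19.7% of all genes with an entry. They occurred 2 times at Cldn7, 1 time each at Cldn3, Krt8 and Krt7, and 0 times at Krt14. Only 67.9% of keratins had an entry, so no summary over keratin promoters is given.

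The covered length of a gene, summed over peaks up to 10 kb from its start and its end, gives a graded value per library. At Cldn7 it was 4.31 and 12.7 kb in K27M cells and 10.1 and 13.4 kb in H3WT cells in DMSO, and 0 kb in all 4 EPZ libraries. The ranges of K27M and H3WT overlap. The peak spanned the whole gene in K27M replicate 2 and in both H3WT lists and also reached its neighbour Elp5, and in K27M replicate 1 it was 4.31 kb wide and did not reach Elp5. The Suz12 peak of H3WT cells was 1.75 kb wide and lay at the 5′ end. In K27M cells the nearest Suz12 peak was 7029.9 kb away and the nearest Ring1b peak 28.0 kb away.

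Cldn3 had 3.61 and 5.79 kb of cover in K27M cells and 5.43 and 12.3 kb in H3WT cells in DMSO, and 0 kb in all 4 EPZ libraries. Here too the genotypes overlap, and in each of the 4 DMSO lists 1 peak spanned the whole gene. Its neighbour Cldn4, another barrier-forming claudin at the same locus, had no cover in any of the 12 lists. Cldn23, a claudin on chromosome 8, had 1.00 and 6.50 kb in K27M cells and 5.04 and 12.3 kb in H3WT cells in DMSO, and 0 kb in all 4 EPZ libraries. K27M replicate 1 was the lowest DMSO library at all 3 claudins, and H3WT replicate 2 the highest. Of the 3 retained members 0 carried Suz12 in K27M cells and 0 carried Ring1b, where 56.6% and 52.1% of all retained genes did.

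Cldn5, Cldn1, Cldn6, Cldn9 and Cldn11 were marked in H3WT replicate 2 only. Cldn5 is the main claudin of the blood-brain barrier and had a peak of 1.24 kb, and Cldn11 forms the junctions of myelin and had one of 1.04 kb. Cldn1, required for the barrier of the epidermis, had 13.9 kb of cover in that library and 0 kb in the other DMSO libraries. Cldn6 and its neighbour Cldn9 share a peak in that list that touches both genes. Their covered lengths were 0.641 and 2.22 kb in K27M replicate 2, 0.765 and 2.02 kb in H3WT replicate 1 and 6.32 and 7.90 kb in H3WT replicate 2, with 0 kb in K27M replicate 1. Cldn10 had 1.55 kb of cover in H3WT replicate 2 only and no peak at a gene end, and Cldn12, which is expressed in many tissues, had no cover in any list.

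**Figure D3:**
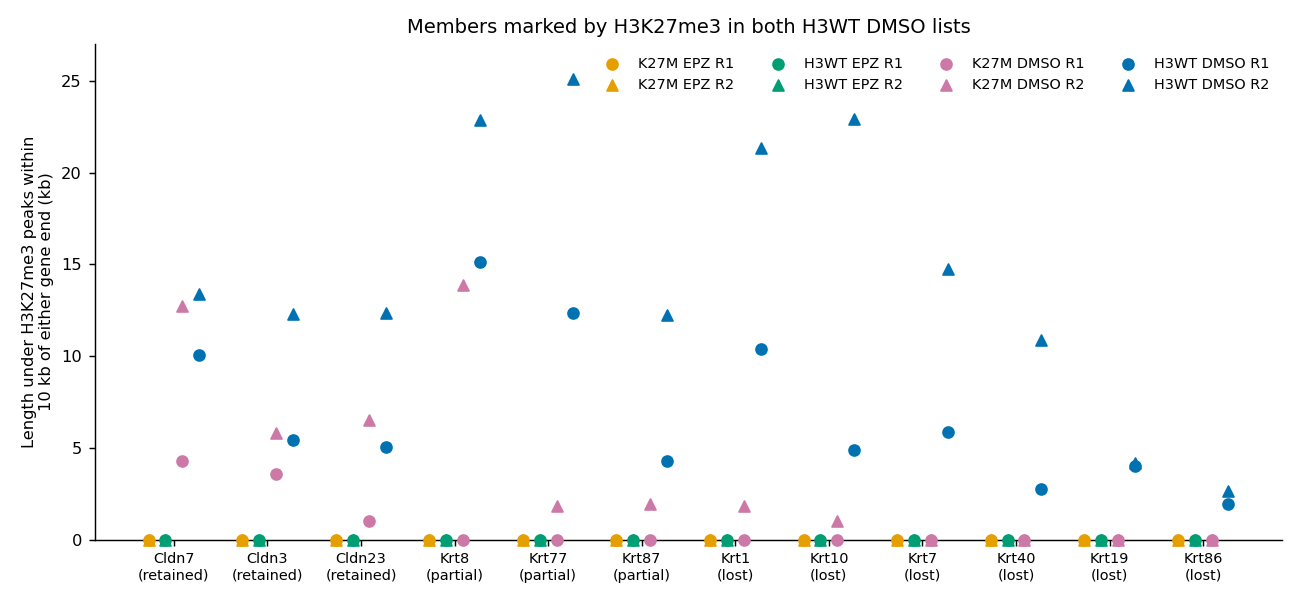
Covered length in kb, summed over H3K27me3 peaks up to 10 kb from a gene's start and end, for the 12 members marked in both H3WT DMSO lists, with 1 point per library (circles replicate 1, triangles replicate 2). All EPZ points are at 0, the 3 claudins have points above 0 in all 4 DMSO libraries, and every keratin is at 0 in K27M replicate 1.

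Among the keratins of simple epithelia, Krt8 on chromosome 15 had the most cover in K27M cells. Its covered length was 0 and 13.9 kb in K27M cells and 15.1 and 22.8 kb in H3WT cells in DMSO. Both K27M values lay below both H3WT values. The peak at its 5′ end was 4.46 kb wide in K27M replicate 2, 8.27 kb in H3WT replicate 1 and 14.0 kb in H3WT replicate 2, where it also touched the end of Krt78. Krt18, the partner of Krt8, had 12.5 kb of cover in H3WT replicate 2 and 0 kb in the other 3 DMSO libraries, so the pair was marked together in 1 list. Krt7, a keratin of glands and ducts, had 0 kb in both K27M libraries and 5.86 and 14.8 kb in the H3WT libraries. Krt19, the smallest type I keratin, had 0 kb in both K27M libraries and 3.99 and 4.17 kb in the H3WT libraries, and these 2 H3WT values were the closest pair among the 9 keratins. Krt20, a keratin of the gut lining, had a peak in H3WT replicate 2 only.

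Krt1 and Krt10 pair in the upper layers of the epidermis. Krt1 on chromosome 15 had 0 and 1.83 kb in K27M cells and 10.4 and 21.3 kb in H3WT cells, and Krt10 on chromosome 11 had 0 and 1.03 kb in K27M cells and 4.91 and 22.9 kb in H3WT cells. Both were without a K27M peak at a gene end. The mark at Krt10 in H3WT replicate 1, 1.99 kb wide, lay beside the end of the gene record that is upstream of its listed promoter, and that promoter itself was under a peak in H3WT replicate 2 only. Krt77, a type II keratin next to Krt1, had 0 and 1.83 kb in K27M cells and 12.3 and 25.1 kb in H3WT cells. The 1.83 kb peak of K27M replicate 2 lay at the 3′ end of Krt77, and the same peak is what counts towards the cover of Krt1. In H3WT replicate 2 a single peak of 23.2 kb ran over Krt1 and into Krt77. Krt5 and Krt14, the pair of the basal epidermal layer, had no cover in any of the 12 lists. Krt15, another basal keratin, had 0 kb in both K27M libraries and 2.45 and 2.46 kb in the H3WT libraries, with no peak at a gene end. This cover came from the peak at its neighbour Krt19.

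The hair keratins with the mark in both H3WT lists were Krt87, Krt86 and Krt40. Krt87 had 0 and 1.94 kb in K27M cells and 4.26 and 12.2 kb in H3WT cells. Krt86 had 0 kb in both K27M libraries and 1.95 and 2.68 kb in the H3WT libraries. Krt40 had 0 kb in both K27M libraries and 2.75 and 10.9 kb in the H3WT libraries, and its peak lay at the 3′ end in replicate 1 and at both ends in replicate 2. At each of the 9 keratins both K27M values lay below both H3WT values, and at the 3 claudins the genotypes overlapped. All 12 were picked for a peak in both H3WT lists, which favours this order, and it held at 50.9% of all genes picked in that way. All 9 keratins were at 0 kb in K27M replicate 1, the shortest of the 4 DMSO lists, in which 4.62% of all genes were marked. The 12 keratins marked in H3WT replicate 2 only had 2.42 kb (Krt79) to 19.3 kb (Krt78) of cover there. Krt78, whose record reaches the end of Krt8, had 0 and 10.9 kb in K27M cells and 14.5 kb in H3WT replicate 1, largely from the same peaks as Krt8. Krt80 had 2.26 kb in H3WT replicate 2 only, and Krt222, at the edge of the chromosome 11 cluster, had 6.06 kb and a peak of 1.19 kb in that library only.

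The chromosome 11 cluster runs for 1037 kb, chr11:99232761-100269951, from Krt222 to Krt42. A stretch of 468 kb between Krt40 and Krt33a holds 38 other genes, 23 of them keratin-associated proteins of the hair shaft (Krtap), and divides 12 keratins from 15. Across the cluster K27M replicate 1 had 0 peaks and replicate 2 had 1 peak of 1.03 kb, 0.0997% of the length. H3WT replicate 1 had 7 peaks over 14.9 kb (1.43%), and H3WT replicate 2 had 50 peaks over 119 kb (11.5%). For the whole chromosome the covered share was 0.740% and 2.45% in K27M cells and 2.38% and 8.62% in H3WT cells, so only H3WT replicate 2 covered more of the cluster than of the chromosome. The stretch of equal length before the cluster was covered at 3.75% and 11.3% in K27M cells and 11.3% and 22.8% in H3WT cells, and the one after it at 0.296% and 1.20% in K27M cells and 0.963% and 4.97% in H3WT cells. H3WT replicate 2 covered 36.0% of the part with the first 12 keratins, 0.677% of the stretch with the Krtap genes and 1.61% of the part with the other 15 keratins. It marked 10 of the first 12 keratins, including Krt25, Krt26, Krt27 and Krt28 of the inner root sheath of the hair follicle and Krt12 of the cornea, and 1 of the other 15, Krt19. None of the 38 genes in the stretch was marked in any list. Most of the cover therefore lay in the first part of the cluster, with a peak also at Krt19.

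**Figure D4:**
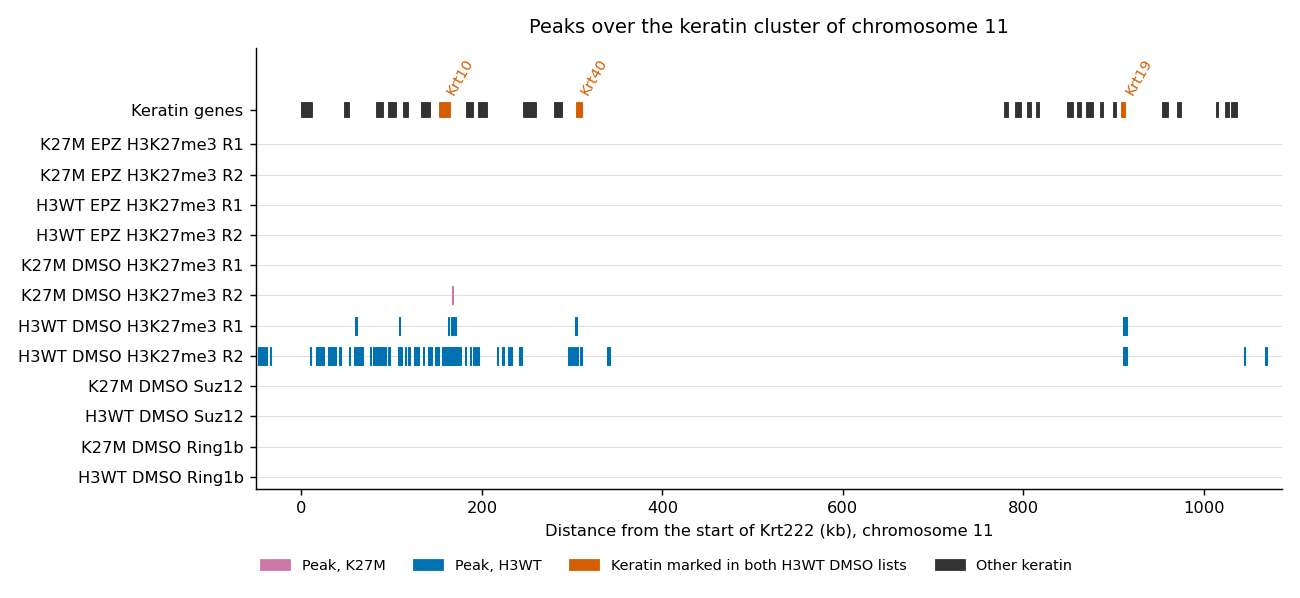
Map of the chromosome 11 keratin cluster with 50 kb on either side, in kb from the start of Krt222, with keratin genes on top and the peaks of the 12 lists below. Separate peaks of H3WT replicate 2 are scattered over the part with the first 12 keratins, of which they cover 36.0%. They are nearly absent from the rest of the cluster, and K27M cells have a single peak, of 1.03 kb, near Krt10.

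The chromosome 15 cluster runs for 684 kb, chr15:101348315-102032026, from Krt80 to Krt18, with 1 other gene inside. K27M replicate 1 had 0 peaks in it, and K27M replicate 2 had 5 peaks over 17.7 kb (2.59%). H3WT replicate 1 had 17 peaks over 50.1 kb (7.33%), and H3WT replicate 2 had 32 peaks over 134 kb (19.7%). The whole chromosome had 0.469% and 1.47% covered in K27M cells and 1.40% and 6.40% in H3WT cells. The cluster was thus covered more than its chromosome in K27M replicate 2 and in both H3WT lists. In stretches of the same length below and above the cluster, H3WT replicate 1 covered 1.32% and 1.53% and H3WT replicate 2 covered 6.86% and 7.03%. K27M replicate 2 covered 2.58% and 3.92% of these stretches. One of its 5 peaks, 5.70 kb wide, lay inside the long record of Krt78 and at no gene end.

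**Figure D5:**
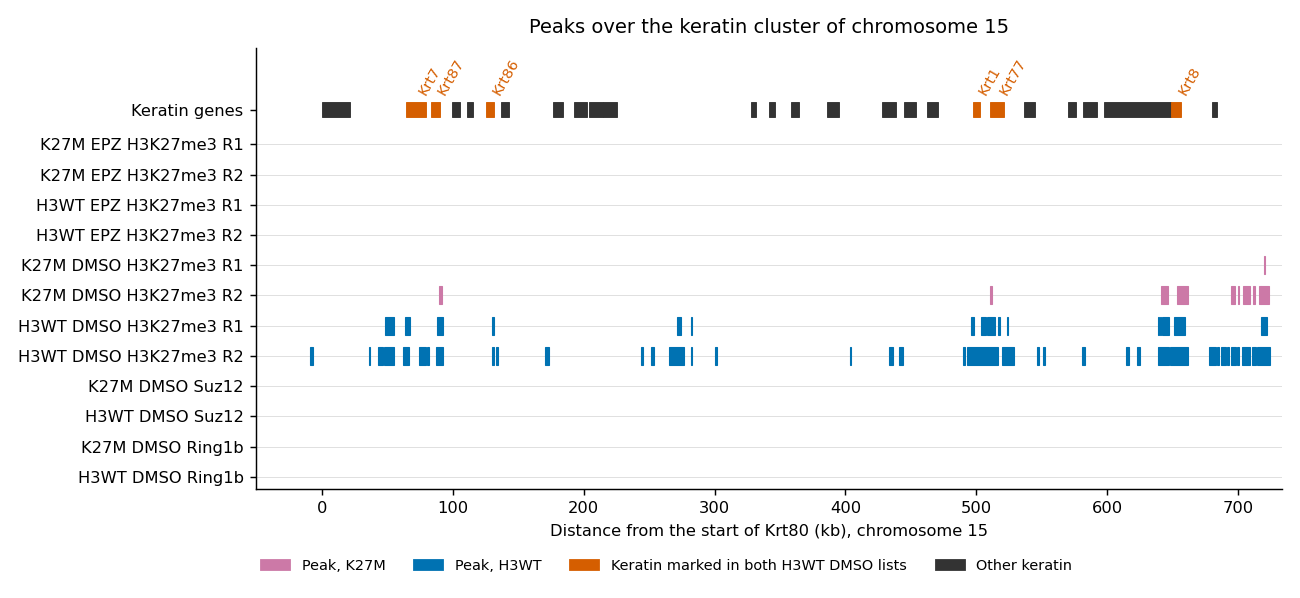
Map of the chromosome 15 keratin cluster with 50 kb on either side, in kb from the start of Krt80, drawn like the map of the chromosome 11 cluster. Inside the cluster the H3WT peaks are spread from the stretch between Krt80 and Krt7 up to Krt18, those of K27M replicate 2 lie at Krt87, at Krt77 and around Krt8, and beyond Krt18 all 4 DMSO lists have peaks.

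Neither cluster held a peak of Suz12, Ring1b or any EPZ list. From the chromosome 15 keratins the nearest Ring1b peak was 101 kb away in K27M and in H3WT cells, and the nearest Suz12 peak was 660 kb away in K27M cells and 877 kb in H3WT cells. From the chromosome 11 keratins the nearest Ring1b peak was 295 kb away in K27M cells and 294 kb in H3WT cells, and the nearest Suz12 peak 684 kb in K27M cells and 686 kb in H3WT cells. Of the 12 H3WT-marked members, 1 carried Suz12 in H3WT cells, against 16.8% of all H3WT-marked genes, and 0 carried Ring1b, against 23.6%. The H3WT Suz12 list is the shortest of those made in DMSO.

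Treatment with EPZ was compared with DMSO over all 8 H3K27me3 libraries, 4 against 4, by a two-sided exact permutation test of covered length in which the smallest possible p is 0.0286. Each arm pooled 2 K27M and 2 H3WT libraries, so the spread within an arm, and each SD, includes any difference between the genotypes. Covered length was 0 kb at every member in all 4 EPZ libraries. In DMSO 45 of the 76 members had cover in at least 1 library, 33 keratins and 12 claudins, and 31 had none. Over all 20665 genes, 8592 had cover in at least 1 of the 8 libraries. Cldn7 averaged 0 kb under EPZ and 10.1 ± 4.14 kb in DMSO, Cldn3 0 kb under EPZ and 6.78 ± 3.80 kb in DMSO, and Cldn23 0 kb under EPZ and 6.22 ± 4.70 kb in DMSO (SD, n = 4 each, exact permutation p = 0.0286, adjusted p = 0.181). These were the 3 members with cover in all 4 DMSO libraries, and so the 3 at an unadjusted p under 0.05. Krt8 averaged 0 kb under EPZ and 13.0 ± 9.51 kb in DMSO (SD, n = 4 each, exact permutation p = 0.143, adjusted p = 0.396). Over all 8592 genes with cover, 0% were called after Benjamini-Hochberg adjustment, the lowest adjusted p was 0.181, and 1354 genes (15.8%) were lower under EPZ at an unadjusted p under 0.05. Because p cannot fall below 0.0286, a call would have needed most of the 8592 genes at an unadjusted p under 0.05. The absence of calls therefore does not show that cover was unchanged. No member was marked in both K27M EPZ lists, against 0.518% of all genes, or in both H3WT EPZ lists, against 0.784%. Of the 12 H3WT-marked members 0 were marked in any EPZ list, against 9.19% of all H3WT-marked genes.

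Other epithelial genes were read from 4 lists. Of 33 junction genes, 16 had a peak in both H3WT DMSO lists (48.5%), of which 7 were retained, 8 partial and 1 lost. Over all genes 10.6% had such peaks, and of these 42.8% were retained, 38.4% partial and 18.8% lost. Retained were Ocln, which encodes the tight junction protein occludin, Dsp and Pkp1 of desmosomes, and 4 others. Ocln had 5.39 and 9.88 kb of cover in K27M cells and 8.41 and 21.5 kb in H3WT cells, and a Suz12 and a Ring1b peak in both genotypes. Partial were Cdh1, the adhesion protein E-cadherin, Epcam and Tjp1 among others. Cdh1 had 0 and 4.69 kb in K27M cells and 4.74 and 9.77 kb in H3WT cells, and it was at 0 kb in all 4 EPZ libraries. Of the 16 junction genes marked in H3WT cells, 15 had a peak in K27M replicate 2, as did the 3 claudins and 3 of the 9 keratins.

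Of 17 epithelial transcription and splicing regulators found by symbol, 10 had a peak in both H3WT lists (58.8%, against 10.6% of all genes), with 5 retained, 4 partial and 1 lost, where the shares over all H3WT-marked genes were 42.8%, 38.4% and 18.8%. Esrp1, an epithelial splicing factor, had 17.4 and 23.7 kb of cover in K27M cells and 19.9 and 31.9 kb in H3WT cells in DMSO. It was marked in 3 of the 4 EPZ lists, with 0 and 2.36 kb in K27M cells and 6.32 and 5.91 kb in H3WT cells under EPZ, and by Suz12 and Ring1b in both genotypes. Ovol1 and Ovol2, repressors that keep cells epithelial, and Tfap2a were also retained. Tfap2a was marked in both H3WT EPZ lists, with 28.5 and 22.5 kb of cover. In the K27M EPZ lists it was unmarked, with 0 and 5.79 kb. Grhl2 and Grhl3, which activate junction genes, were partial. Of 9 repressors of epithelial genes 4 were marked in both H3WT lists (44.4%, against 10.6% of all genes), Snai2, Twist1 and Twist2 retained and Snai3 partial, whereas Zeb1 and Zeb2 had no cover in any list. Twist1 was also marked in K27M EPZ replicate 2 and in H3WT EPZ replicate 1, with 12.0 and 15.5 kb of cover. Of 16 cornified envelope genes, expressed with Krt1 and Krt10 in the upper epidermis, 0 were marked in both H3WT lists and 3, Lor, Tgm1 and Krtdap, in H3WT replicate 2 only, which marked 20.8% of all genes. Suz12 peaks lay at 5 of the 17 regulators in K27M cells and 4 in H3WT cells, against 2.81% of all genes in K27M cells and 1.79% in H3WT cells. Ring1b peaks lay at 4 regulators in K27M cells and 3 in H3WT cells, against 5.82% of all genes in K27M cells and 4.96% in H3WT cells. Among the 76 keratins and claudins 1 carried Suz12, in H3WT cells, and 0 carried Ring1b.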

How the data were processed

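H3K27me3, Suz12 and Ring1b ChIP-seq peak lists of 12 libraries were used, and the 2 IgG samples were not analysed here. Bowtie 1.1.2 and build mm10 are named per the submitters' processing notes, and the peak caller, its threshold and control and the read depth are not given in the sources used here, so no counting interval is possible. The authors deposited 1 list per library, with 100144 regions in all given by their coordinates. The score column of the deposited lists is 0 in every line and was not used. The 21 peaks that touched a neighbour in the same list were merged.

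Genes came from the RefSeq table of GRCm38.p6, which lists Cldn25-ps as protein-coding. Of the 76 members 55 had a promoter entry. Genotype, target and EPZ treatment were taken from the sample titles. Among the analysed libraries in DMSO groups, only H3WT H3K27me3 replicate 2 has DMSO in its title, and the other titles name no treatment. A gene was marked with a peak overlapping the window of 1 kb around its start or end by at least 1 bp. Covered length within 10 kb of either gene end was tested between EPZ and DMSO over all 70 relabellings of 4 libraries against 4, adjusted over all genes with cover. Genotypes and the Suz12 and Ring1b libraries were compared by values only. The scripts (Python 3.11.15, numpy 2.4.6, pandas 2.3.3, scipy 1.17.1) were tested on simulated data. Named were every member marked in both H3WT DMSO lists or in an EPZ, Suz12 or Ring1b list, and a list of keratins and claudins of well-known tissue roles, 26 members in all, and others only where a count or a shared peak called for it. The members, the gene lists and the tests were chosen with earlier results of these data known. Alternatives were other windows, peak widths, overlaps, single replicates, loci and relabellings.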

Additional observations from a re-analysis of the deposited data

How the results depend on the processing

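Of 140 alternative counts, 113 stayed within 1.5 times the value reported. With a window of 5 kb, or with the whole gene interval, 5 members were partial in K27M cells. With peaks of at least 3 kb, H3WT replicate 2 marked 15 members, Suz12 in H3WT cells marked 0, and 891 genes were lower under EPZ at an unadjusted p under 0.05, a count added after the data were seen. With neighbours taken as 1 locus, H3WT replicate 1 marked 5 loci and replicate 2 marked 9, with 5 marked in both, of which 1 was partial and 1 lost. With a peak in either replicate, 29 members were H3WT-marked, 6 retained, 0 partial and 23 lost. Leaving out 1 replicate number gave 12 to 29 H3WT-marked members, 3 to 6 retained, 0 partial and 9 to 23 lost. The lower counts are those without replicate 2 and the higher ones those without replicate 1, so under the rule that both lists must hold a peak H3WT replicate 1 sets the number of marked members. With a window of 5 kb, 3 of 4 H3WT-marked claudins were retained and 1 was lost. With the whole gene interval, 3 of 6 were retained, 1 was partial and 2 were lost. With peaks of at least 3 kb, 2 of 3 were retained and 1 was partial. With an overlap of at least 500 bp, all 3 were retained. No keratin was retained under any window, width or overlap. For the keratins this was fixed in advance. K27M replicate 1 held 0 peaks in either keratin cluster, and its nearest peak lay 35.7 kb from the closest keratin, Krt18. Of the 21 keratins marked in H3WT replicate 2, 3 were marked in K27M replicate 2. With the replicate block, or with relabelling within each genotype, 0 genes and 0 members were lower at an unadjusted p under 0.05, because the smallest possible p is 0.0556; without either replicate number there were also 0, because it is 0.333. The deviations of same-numbered libraries correlated at 0.346 between genotypes in DMSO, at -0.446 under EPZ and at -0.070 to 0.031 between treatments. Replicate 2 had the longer list in both genotypes in DMSO, but under EPZ only in K27M cells. Whether same-numbered libraries shared a batch was not tested. The block could change no adjusted call, because its smallest possible p is above 0.05. Every named member had 0 kb of cover under EPZ, so its direction was fixed under the alternatives and says nothing about stability. Peak lists of unknown depth limit every comparison: a list from a deeper library can hold more and wider peaks, so the absence of a peak is not the absence of the mark.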
